A study of Mus musculus with 4 samples.

Results

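The interferon-response genes described here are 9 genes, Ifit1, Ifit3, Isg15, Stat2, Irf7, Irf9, Oasl2, Bst2 and Usp18. They were taken by gene symbol from a table of 17778 genes, and all 9 had a row. The choice of these genes was made with earlier results of these data known. The table holds messenger RNA from the medial prefrontal cortex (mPFC) of male C57BL/6 mice (C57BL/6J in the methods of the study), an inbred laboratory strain. The mice were juvenile when the experiment began. Their tissue was taken weeks later, after adaptation, the stress or control period and the behavior tests. The control group (2 libraries) lived without stress, and the CUMS group (2 libraries) had gone through chronic unpredictable mild stress, a schedule of changing stressors such as isolation, restraint and a disturbed day rhythm. The mice of the CUMS group were those that had turned depression-like in every one of the behavior tests, so that they are a selected share of the stressed animals. No genotype or drug differed between the groups, and RNA was isolated mouse by mouse, but whether a library held a single mouse is not stated in the sources used here.

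Each gene had 1 mean per group, in RPKM (reads divided by gene length and by sequencing depth). No value of a single library was available, so that the spread between mice is unknown and no test was possible. The low values of short genes come in even steps, from which the depth was estimated as 7547170 fragments for a control library and 7610350 for a CUMS library. This gives each mean a number of fragments, and each log2 ratio (mean in CUMS divided by mean in control) an exact Clopper-Pearson 95% interval. Such an interval is called a counting interval here. It covers counting error only and not the differences between mice or copies made by PCR. The neuronal genes Camk2a and Slc17a7 were at 828 and 635 RPKM in control, so that neuronal transcripts were present. These values do not show which brain region was dissected.

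Interferons are signal proteins that cells release when they sense foreign nucleic acid. Type I interferons bind the receptor Ifnar1/Ifnar2, whose kinases Jak1 and Tyk2 switch on STAT2, which acts with IRF9 in the factor ISGF3. ISGF3 binds a DNA element called the interferon-stimulated response element (ISRE) and turns on a broad group of antiviral genes. In the brain, neurons, microglia, astrocytes and endothelial cells can all respond in this way.

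In the mPFC of depression-like mice, 8 of the 9 genes had a higher mean than in control and 1, Irf9, had a lower mean. The median log2 ratio of the 9 genes was 0.89, and that of all 14257 genes that reached 0.5 RPKM in one group or the other was -0.02. Oasl2 was 2.46-fold higher, Usp18 2.26-fold, Irf7 2.03-fold, Bst2 1.91-fold, Ifit3 1.86-fold and Ifit1 1.82-fold. These 6 genes were past 1.5-fold, which is the fold part of the study's threshold (the other part, a probability from NOISeq, was not used here), and no member was past it in the other direction. Among all 14257 genes, 2.78% were more than 1.5-fold higher in CUMS and 4.42% more than 1.5-fold lower. Any higher mean was seen in 46.6% of them.

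Genes of low expression pass a fold threshold more easily, because few fragments lie behind them. Of the 4 members with a mean of both groups of 0.5 to 2 RPKM, all 4 were more than 1.5-fold higher, against 9.02% of the 2473 genes at that level. Of the 3 members at 2 to 5 RPKM, 2 were, against 2.28% of 2323 genes. Neither of the 2 members at 5 to 10 RPKM was, against 0.563% of 2486 genes. Every member reached 0.5 RPKM in at least 1 group, and 8 did so in both. Usp18 reached it through the CUMS group alone. The counting interval lay above 0 for 7 members and below 0 for Irf9, whereas that of Isg15 held 0. Among all genes, 12.7% of intervals lay above 0 and 17.1% below. These intervals rest on the estimated depth. With the depth divided by 2, the interval excluded 0 for 4 members in place of 8, and at a confidence of 99% for 5. With the depth multiplied by 2 it excluded 0 for all 9.

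**Figure D1:**
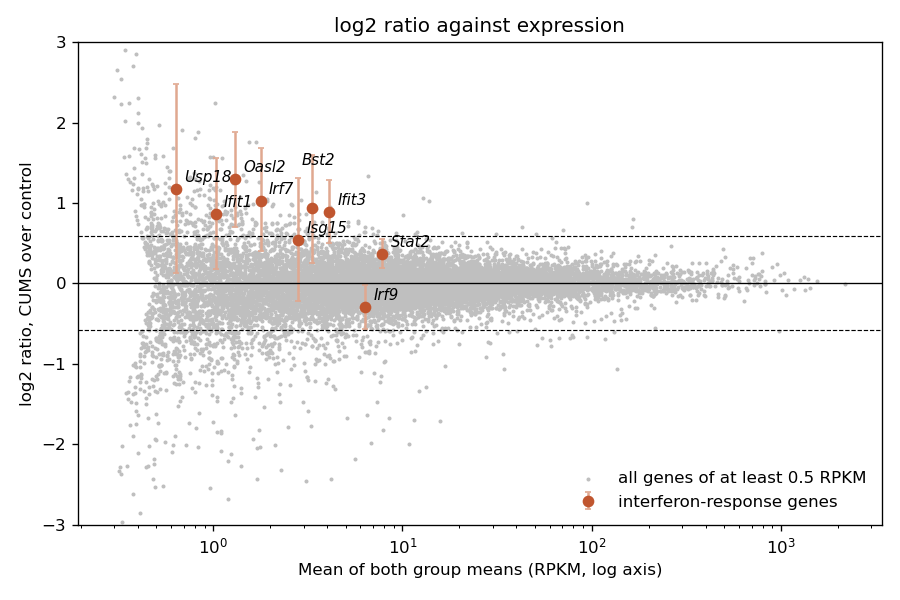
Each point is a gene that reached 0.5 RPKM in one group or the other, with the mean of its 2 group means on the x axis (RPKM, log axis) and its log2 ratio of CUMS over control on the y axis. The dashed lines mark 1.5-fold, the bars are 95% counting intervals, and 39 genes beyond a log2 ratio of 3 in either direction are not drawn. The 9 interferon-response genes, in color, have less than 10 RPKM, and 6 of them lie above the upper dashed line while Irf9 lies under 0.

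The promoters of the 9 genes were searched for the ISRE, because this is the element that ISGF3 binds. Binding itself was not measured. The letters searched were GAAA, a gap of 2 bases of any kind, and GAAA again, on both strands, in a window from 250 bases before to 50 bases after the start of the gene (RefSeq, GRCm38.p6). The table of promoter sequences held 8 of the 9 genes and not Usp18. A match was found in 5 of the 8, Bst2, Ifit1, Ifit3, Isg15 and Stat2, and in 3.44% of all 32851 promoters. Counted by gene, as the members are, the share was 3.99% of 27025 genes. In the lists of other interferon-induced genes described below, 8 of 8 gamma-induced and 8 of 21 type I-induced genes with a promoter sequence had a match. Windows around matches are given on the strand of the gene, with the ISRE letters in capitals (TTTC with the same gap where the match is on the other strand). The set lets the spacing and the doubling of the element be compared between the members that carry it.
Isg15 (chr4:156200871-156200900, minus strand): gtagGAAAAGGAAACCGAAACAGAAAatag
Ifit1, distal (chr19:34640779-34640800, plus strand): cttcagTTTCACTTTCcagtct
Ifit1, proximal (chr19:34640798-34640819, plus strand): tctcagTTTCAGTTTCtcactg
Ifit3, distal (chr19:34583367-34583388, plus strand): ggtaagTTTCACTTTCctcttc
Ifit3, proximal (chr19:34583401-34583422, plus strand): agtctgTTTCAGTTTCtacttt
Stat2 (chr10:128270270-128270291, plus strand): ccctggTTTCAGTTTCctttcc
Bst2 (chr8:71537581-71537608, minus strand): ttccagGAAAATGAAACTGAAAggctgc

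In Isg15, 3 overlapping matches began 78 bases before the start of the gene, and in Bst2 2 overlapping matches began 130 bases before it. Ifit1 held 2 separate matches at 104 and 85 bases before the start, and Ifit3 held 2 at 156 and 122 bases. In both genes the distal match read TTTCACTTTC and the proximal match TTTCAGTTTC. Stat2 had a single match at 222 bases, also TTTCAGTTTC. In Irf7, Irf9 and Oasl2 these letters were not in the window. The element GAS, known for the response to interferon gamma, was searched as TTC, a gap of 3 bases of any kind, and GAA, which reads the same on both strands. It was found in Bst2 alone of the 8, where it shares 3 bases with the ISRE match. The share was 8.30% of all promoters and, counted by gene, 9.55%. GAS was found in 5 of 8 gamma-induced and 6 of 21 type I-induced genes of the lists below. Members with and without a match had ratios of many sizes. Oasl2 and Irf7, without a match, had log2 ratios of 1.30 and 1.02, and Stat2, with a match, had 0.37. Across 383 other genes with an ISRE match that reached 0.5 RPKM, the median log2 ratio was 0.01, 51.7% were higher in CUMS and 4.70% were more than 1.5-fold higher. Across 10889 genes without a match these values were -0.02, 46.1% and 2.55%.

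Of the 3 transcription factors among the 9 genes, Stat2 and Irf7 were higher in CUMS and Irf9 was lower. Stat2 (gene 20847, chromosome 10, 128270498 to 128292853), a subunit of ISGF3, had a mean of 6.805 RPKM in the unstressed group, 452 fragments in both libraries together, and of 8.81 RPKM (590 fragments) after stress. The log2 ratio was 0.37 (counting interval 0.19 to 0.55), and 77 of the 2486 genes at 5 to 10 RPKM had a higher one. Irf9 (gene 16391, chromosome 14, 55603985 to 55610030), which gives ISGF3 its grip on DNA, had 254 fragments (7.015 RPKM) in control and 209 fragments (5.725 RPKM) in CUMS. The log2 ratio of -0.29 had an interval of -0.56 to -0.02, and 89.7% of the genes at its level had a ratio at least as high. The 2 genes whose proteins sit in the same complex therefore had ratios on opposite sides of 0, with intervals that do not overlap.

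Irf7 (gene 54123, chromosome 7, 141263183 to 141266499), the factor that is itself induced by ISGF3 and then drives interferon alpha genes, had 32 fragments (1.175 RPKM) in control and 66 fragments (2.39 RPKM) in CUMS. The log2 ratio was 1.02 (0.40 to 1.69), with 62 of 2473 genes at 0.5 to 2 RPKM above it.

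The effectors Oasl2, Bst2, Ifit3 and Ifit1 were each more than 1.5-fold higher in CUMS. Oasl2 (gene 23962, chromosome 5, 114896926 to 114912245), an oligoadenylate synthetase-like protein with ubiquitin-like domains, had the highest ratio of the 9. It had 36 fragments (0.75 RPKM) in control and 88 fragments (1.845 RPKM) in CUMS, a log2 ratio of 1.30 (0.70 to 1.88). Only 28 of the 2473 genes at its level had a higher ratio. Bst2 (gene 69550, chromosome 8, 71534255 to 71537472), known as tetherin, which holds budding virus particles at the cell surface, had 30 fragments (2.275 RPKM) in control and 57 fragments (4.355 RPKM) in CUMS. The log2 ratio was 0.94 (0.25 to 1.60), and 8 of the 2323 genes at 2 to 5 RPKM had a higher one.

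The Ifit proteins bind viral RNA and block its translation. Ifit3 (gene 15959, chromosome 19, 34583119 to 34588982) was at 2.86 RPKM in control (86 fragments) and 5.31 RPKM in CUMS (161 fragments), a log2 ratio of 0.89 (0.51 to 1.29), with 10 of the 2323 genes at its level above it. Ifit1 (gene 15957, chromosome 19, 34640889 to 34650009) was at 0.73 RPKM in control (29 fragments) and 1.33 RPKM in CUMS (53 fragments). Its log2 ratio was 0.87 (0.18 to 1.56), and 97 of 2473 genes had a higher one. With a pseudocount of 0.5 RPKM the ratio of Ifit1 was 0.57, which is under 1.5-fold. The interval of Ifit1 was wider than that of Ifit3 and held all of it.

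Both genes have close copies in the same cluster, and reads that fit several copies were not counted. Of the 100-base windows of the longest Ifit3 transcript (GENCODE M21), 31.7% also occur in Ifit3b, and 3.29% of those of Ifit1 occur in Ifit1bl2. Ifit3b (listed as I830012O16Rik) was at 1.295 RPKM in control and 1.57 RPKM in CUMS, a log2 ratio of 0.28 (-0.35 to 0.94). The summed fragments of Ifit3 and Ifit3b, which an exchange of reads between them would leave unchanged, had a log2 ratio of 0.73 (0.40 to 1.06). The copies of Ifit1 had ratios under 0 with intervals that held 0. The gene span of Ifit1 lies within that of Ifit1bl1. Ifit1bl1 (listed as Gm14446) was at 1.405 RPKM in control and 1.00 RPKM in CUMS, a log2 ratio of -0.49 (-1.16 to 0.19). Ifit1bl2 (listed as 2010002M12Rik) was at 0.255 and 0.11 RPKM, a log2 ratio of -1.21 (-2.81 to 0.37) on 13 and 6 fragments. Summed with Ifit1bl2, Ifit1 had a log2 ratio of 0.48 with an interval that held 0 (-0.12 to 1.08). Ifit2, which is in the same cluster and is likewise interferon-induced, was at 1.62 RPKM in control and 1.52 RPKM in CUMS, a log2 ratio of -0.09 (-0.53 to 0.32).

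**Figure D2:**
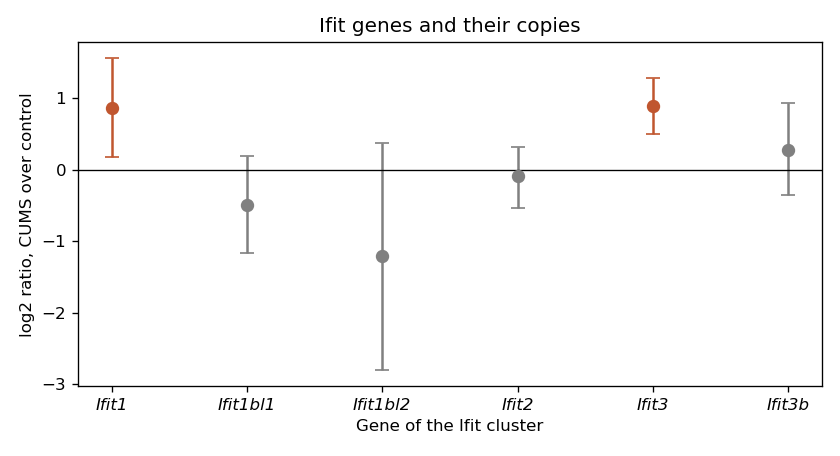
The y axis gives the log2 ratio of CUMS over control for 6 genes of the Ifit cluster on chromosome 19, with 95% counting intervals as bars. Ifit1 and Ifit3, in color, lie above 0 with their whole interval, while the intervals of the other 4 genes hold 0.

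Isg15 and Usp18 belong to one system. Isg15 (gene 100038882, chromosome 4, 156199424 to 156200818) is a small ubiquitin-like protein that is attached to other proteins. It was at 2.285 RPKM in control (26 fragments) and 3.325 RPKM in CUMS (38 fragments), a 1.46-fold difference. The log2 ratio of 0.54 had an interval from -0.22 to 1.31, so that the higher mean could not be told from counting error at the estimated depth. With the depth multiplied by 2 the interval of Isg15 lay above 0. Usp18 (gene 24110, chromosome 6, 121245906 to 121270917) removes ISG15 from proteins and dampens the receptor. It had the lowest level of the 9, with 0.39 RPKM in control (10 fragments) and 0.88 RPKM in CUMS (24 fragments). The log2 ratio was 1.17 (0.13 to 2.48), the widest interval of the 9, and 40 of 2473 genes at its level had a higher ratio. The long non-coding gene Gm44148 overlaps Usp18, and 1.61% of the windows of Usp18 occur in it too. Without knowledge of strand, reads from these shared windows cannot be assigned to either gene.

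In control, Irf9 and Stat2 had the highest means per kilobase and their counting intervals overlapped. Ifit3 followed at a distance, and its interval did not reach that of Stat2. Below it Isg15, Bst2, Irf7, Oasl2, Ifit1 and Usp18 came in this order, each with an interval that overlapped the next. In CUMS, Stat2 stood above Irf9 without overlap, and each further neighbor overlapped the next in the order Irf9, Ifit3, Bst2, Isg15, Irf7, Oasl2, Ifit1 and Usp18. Stat2 was 17.4-fold above Usp18 in control and 10.0-fold above it in CUMS. The 9 genes summed to 24.3 RPKM without stress and 34.0 RPKM in CUMS.

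**Figure D3:**
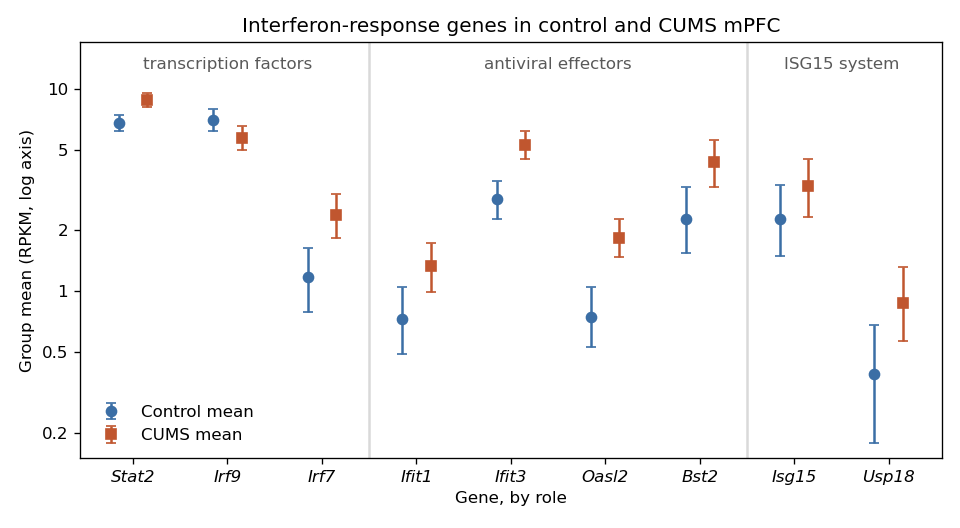
The y axis (log axis) gives the group mean in RPKM of each gene in control (circles) and CUMS (squares), and the bars are exact Poisson 95% intervals of the estimated fragments. For Oasl2, Ifit3, Irf7 and Stat2 the bars of the groups do not overlap, and Irf9 is the only one of the 9 genes with the square under the circle.

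Other genes of the pathway were described in lists, over the genes that reached 0.5 RPKM in one group or the other. A gene near this limit can pass it through the group in which it is higher, and the counts without a limit are given where this matters. Of 10 interferon genes looked for (Ifnb1, Ifng, Ifnk, Ifne and 6 of the alpha and lambda families), 0 had a row, so that the ligands were not analysed here.

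The receptors and their kinases showed no member past 1.5-fold. Of 7 genes, 5 were higher and 2 lower in CUMS, with a median log2 ratio of 0.14. Ifngr1, a chain of the interferon gamma receptor, had the highest ratio, with 5.745 and 7.295 RPKM, a log2 ratio of 0.34 (0.06 to 0.63). Jak2 had the lowest, with 6.905 and 6.07 RPKM, a log2 ratio of -0.19 (-0.37 to -0.00). The receptor chain Ifnar1 was level at 11.08 and 11.145 RPKM, a log2 ratio of 0.01 (-0.11 to 0.13), and Ifnar2 was at 9.935 and 11.985 RPKM, a log2 ratio of 0.27 (0.02 to 0.53).

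The sensors of nucleic acid and their adaptors were mixed. Of 12 genes, 5 were higher and 7 lower, with a median of -0.04. Of these, 2 (Tlr7 and Ifih1) reached 0.5 RPKM through control alone and 1 (Dhx58) through CUMS alone, and without a limit 8 of 15 were higher and 7 lower, with a median of 0.03. Mavs, the mitochondrial adaptor of the RNA helicase sensors, was at 4.88 RPKM in control and 3.235 RPKM in CUMS, a log2 ratio of -0.59 (-0.91 to -0.28). Tlr7, an endosomal sensor of single-stranded RNA, was at 0.705 and 0.41 RPKM, a log2 ratio of -0.78 (-1.62 to -0.04). Of the 12, the helicase regulator Dhx58 had the highest ratio, 0.90 (-0.03 to 1.87), with 0.435 and 0.81 RPKM. The gene Mb21d1 of this list was under 0.5 RPKM in both groups and so outside the 12. It was at 0.23 RPKM in control and 0.47 RPKM in CUMS, a log2 ratio of 1.03 (0.07 to 2.07).

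Of 5 other interferon regulatory factors, 2 were higher and 3 lower, with a median of -0.00. Irf1, which responds to interferon gamma as well, was past 1.5-fold, with 2.66 RPKM in control and 4.04 RPKM in CUMS, a log2 ratio of 0.60 (0.19 to 1.00). Irf3 had the lowest ratio of them, -0.19 (-0.44 to 0.06), at 8.92 and 7.83 RPKM. The 4 genes that attach ISG15 to proteins had ratios from -0.01 (Ube2l6, -0.39 to 0.37) to 0.34 (Herc6, 0.02 to 0.66), and 0 of them were past 1.5-fold.

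Genes that interferon induces, other than the 9, made up the next lists. In the list of other type I interferon-induced genes, 18 of 20 were higher and 2 lower, with a median of 0.47, and 7 were more than 1.5-fold higher against the 2.78% of all genes. Of the 20, 5 reached 0.5 RPKM through CUMS alone. Without a limit, 24 of the 30 genes in the table were higher and 6 lower, with a median of 0.46, and 45.9% of all genes of the table were higher. With the limit set on the mean of both groups, 16 of 18 were higher and 5 of 18 were past 1.5-fold higher, against 46.5% and 2.17% of 13982 genes. Past 1.5-fold with an interval above 0 were 6 genes, of which 4 (Rsad2, Mx2, Samd9l and Oas1a) reached 0.5 RPKM through CUMS alone. With the limit on the mean of both groups 4 of 18 were, against 1.27% of 13982 genes. The 7 genes past 1.5-fold all had a mean of both groups under 2 RPKM. For Rsad2 and Oas1a it was under 0.5 RPKM, so that the shares given next do not cover their level. At 0.5 to 2 RPKM, 9.02% of genes were past 1.5-fold higher, and 4.33% with an interval above 0. Rsad2, an antiviral enzyme also called viperin, was at 0.23 RPKM in control and 0.515 RPKM in CUMS, a log2 ratio of 1.16 (0.21 to 2.26). Mx2, a dynamin-like antiviral GTPase, was at 0.335 and 0.685 RPKM, a log2 ratio of 1.03 (0.00 to 2.17). Sp100, of the nuclear bodies, was at 0.725 and 1.295 RPKM, a log2 ratio of 0.84 (0.08 to 1.61). Rtp4 and Samd9l had log2 ratios of 0.78 (0.03 to 1.54) and 0.72 (0.03 to 1.40). Oas1a was 2.83-fold higher (log2 interval 0.12 to 2.92) on 7 and 19 fragments, but 40.9% of its windows occur in the copy Oas1g, so that its value is uncertain. Ifit2 had the lowest ratio of the 20.

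In the list of interferon gamma-induced genes, 7 of 7 were higher, against 46.6% of all genes, and 5 were past 1.5-fold with an interval above 0, against 1.48%. Tgtp1 reached 0.5 RPKM through CUMS alone, and with the limit on the mean 6 of 6 were higher and 4 past 1.5-fold. Except for Irgm1, the genes past 1.5-fold had a mean of both groups under 2 RPKM. For Tgtp1 it was under 0.5 RPKM, a level that the shares given next do not cover. At 0.5 to 2 RPKM, 4.33% of genes were past 1.5-fold higher with an interval above 0, and at 2 to 5 RPKM 1.89%. Without a limit 10 of 12 were higher and 1 lower, with a median of 0.89. The guanylate-binding proteins Gbp2 (0.705 and 1.345 RPKM) and Gbp3 (0.75 and 1.465 RPKM) had log2 ratios of 0.93 (0.25 to 1.70) and 0.97 (0.31 to 1.65). The immunity-related GTPases Irgm1 (1.79 and 3.22 RPKM) and Irgm2 (0.89 and 1.715 RPKM) had 0.85 (0.38 to 1.33) and 0.95 (0.41 to 1.46). Tgtp1 was listed at 0.01, the value that stands for 0, in control and at 0.625 RPKM in CUMS, at least 8.83-fold higher against a floor of 3 fragments over both libraries. Of its windows, 83.3% occur in copies, and together with the copy Tgtp2 its fragments numbered 21 in control and 45 in CUMS, a log2 ratio of 1.09 (0.31 to 1.91). Both interferon lists were fixed with earlier results of these data known, and they are a description of the same libraries and not independent support. Among 11 negative regulators of the pathway, 8 were higher and 3 lower with a median of 0.13, and 1 was past 1.5-fold. This was Socs1, a feedback inhibitor of the kinases, at 0.505 and 0.935 RPKM, a log2 ratio of 0.89 (-0.26 to 2.18). Ptpn11 had the lowest ratio, -0.20 (-0.27 to -0.13).

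**Figure D4:**
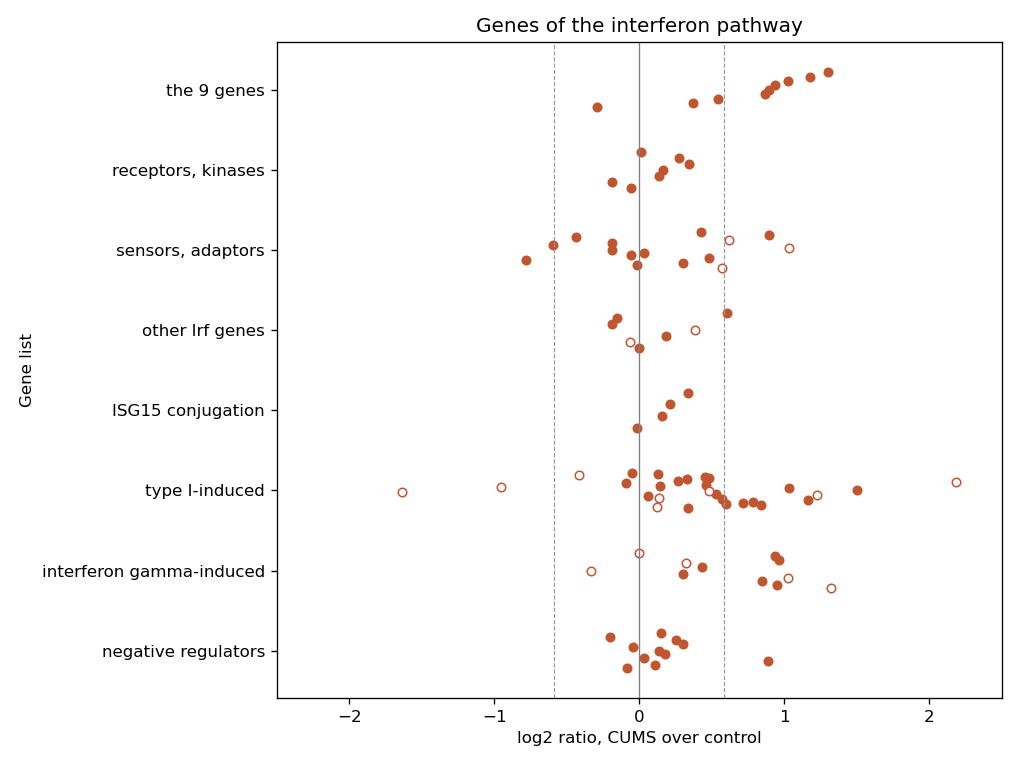
Each point is a gene, with its log2 ratio of CUMS over control on the x axis and its list on the y axis. Filled points reached 0.5 RPKM in one group or the other, open points did not, and the dashed lines mark 1.5-fold. Points (92 in all, with Irf3 in 2 lists) are spread in height for legibility, and 4 genes with under 3 fragments in a group are not drawn. The 9 genes and the gamma-induced genes lie mostly at the right, while receptors, sensors and other Irf genes lie around 0.

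The annotation deposited with the table gave a list that did not come from a choice of genes. It named 38 genes under a response to interferon alpha, beta, gamma or type I, of which 1 was among the 9. Of the other 37, 18 reached 0.5 RPKM, and 10 of these were higher, 7 lower and 1 equal. Their median log2 ratio was 0.11, and 4 (Gbp2, Gbp3, Gbp9 and Tgtp1) were more than 1.5-fold higher, against 2.78% of all genes. These 4 had a mean of both groups under 2 RPKM, and at 0.5 to 2 RPKM 9.02% of genes were past 1.5-fold higher. Tgtp1, with a mean under 0.5 RPKM, lay below that range. With the limit on the mean of both groups 3 of 17 were past 1.5-fold higher, against 2.17% of 13982 genes. With an interval above 0 as well there were 2, against 1.27%. Gbp9 and Tgtp1 reached 0.5 RPKM through CUMS alone, and Gbp2, Gbp3 and Tgtp1 are counted in the gamma-induced list too. Without a limit, 17 were higher and 17 lower. Genes such as Aqp4, Wnt5a and Ass1, which have other main roles, are in this list.

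Markers of other cells were set beside these values, because in bulk tissue fewer cells of a type and less RNA per cell cannot be told apart. Microglia, which express many of the 9 genes when they respond to interferon, had a summed level over 10 markers of 288 RPKM in control and 303 RPKM in CUMS. Of these markers 6 were higher and 4 lower, and 0 were past 1.5-fold. Tmem119 was at 14.49 and 14.405 RPKM, C1qa at 43.89 and 44.8 RPKM, and P2ry12 had the highest ratio, at 11.355 and 16.5 RPKM (log2 ratio 0.54, 0.35 to 0.72). The 9 endothelial markers summed to 126 RPKM in control and 107 RPKM in CUMS, with 4 higher and 5 lower. Among them Cldn5 was past 1.5-fold lower, with a log2 ratio of -0.61 (-0.77 to -0.45). The 6 astrocyte markers summed to 281 and 270 RPKM, with 3 higher and 3 lower. All 6 neuronal markers were higher, with 2639 and 3059 RPKM in sum, and all 6 oligodendrocyte markers were lower, with 1708 and 1139 RPKM.

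Markers of neutrophils and red blood cells were higher in CUMS. The 5 neutrophil markers in the table (S100a8, S100a9, Ngp, Ltf and Camp) summed to 0.62 RPKM in control and 8.68 RPKM in CUMS. In control each had fewer than 3 fragments, and Camp was listed at 0.01. The bounds against the floor of 3 fragments ran from at least 2.77-fold higher for Camp to at least 8.82-fold higher for S100a8. The 6 red blood cell markers summed to 222 and 385 RPKM, and all 6 were higher. Lymphocyte markers were near 0 in both groups apart from Cd4 (1.645 RPKM in control and 2.085 RPKM in CUMS), and all 5 in the table were higher in CUMS. Cd3e and Cd3d had 0 fragments in control and 1 in CUMS, Cd8a had 0 and 4, and Cd79a had 5 and 7. Plasmacytoid dendritic cells make much type I interferon. Their marker Siglech, which microglia express too, was at 4.075 RPKM in control and 4.665 RPKM in CUMS, and Ccr9 had 2 and 5 fragments. Tcf4, which neurons express as well, was at 15.685 and 14.445 RPKM, and it made up most of the sum of the 3 markers other than Bst2, which was 19.8 and 19.2 RPKM. The part of blood cells in the levels of the 9 genes was not tested.

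**Figure D5:**
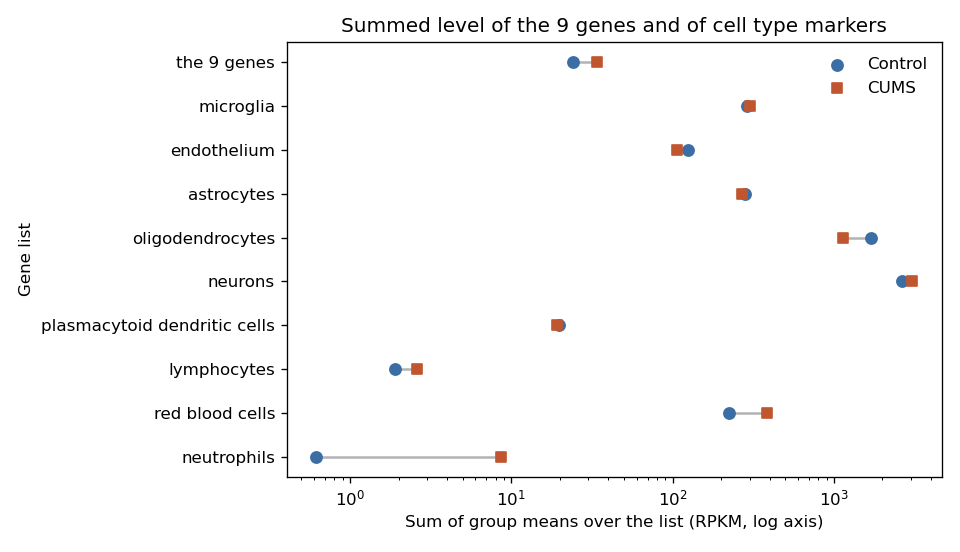
The x axis (log axis) gives the sum of the group means in RPKM over the 9 genes and over each list of cell type markers, in control (circles) and CUMS (squares). Microglia and astrocyte sums nearly coincide between groups, red blood cell and neutrophil sums are higher in CUMS, and the oligodendrocyte sum is lower.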

How the data were processed

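Poly(A) RNA of the mPFC was sequenced as paired reads of about 100 bases in 2 control and 2 CUMS libraries. The authors trimmed reads with SolexaQA and aligned them to mm10 with TopHat 1.0.12 and Bowtie 0.11.3 (versions also in the submitters' processing notes), counted uniquely aligned reads per gene, and deposited the mean RPKM of each group. The annotation and the use of strand are not given in the sources used here. Deposited columns with the authors' log2 ratio, direction and NOISeq probability were not used. An RPKM of 0.01 stood in for 0, and the table keeps means under the minimum of 0.5 RPKM that the methods name.

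The log2 ratio was that of the deposited means. Low products of mean and length (genes under 1500 bases, product under 350) were whole multiples of a step of 66.2 (control) or 65.7 (CUMS) RPKM x bases to within 0.15 for 85.1% and 84.9% of values, against 34.6% and 29.6% with lengths shuffled. A step was read as 1 fragment in 1 of 2 equal libraries. The estimate is lower than the read numbers of the study would lead one to assume, and this was not resolved. The code was tested on simulated data. Coordinates are RefSeq gene spans on GRCm38.p6, matched by identifier for 17731 of 17778 genes. Python 3.11.15, NumPy 2.4.6, SciPy 1.17.1 and pandas 2.3.3 were used.

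The members and lists were chosen with earlier results of these data known. Named were all 9 members, near copies, defining markers, and in each list the genes past 1.5-fold with an interval excluding 0, or else the highest and lowest ratio. Outside this rule, Dhx58 and Irf3 were named as the highest and the lowest ratio of lists that also held such genes. A few other genes of a list (Ifnar1, Ifnar2, Ifih1, Mb21d1, Gbp9, Aqp4, Wnt5a, Ass1) were named after their values were seen. No gene was named for a like pattern, since 2 means give only 1 ratio. limma was planned for library values and was not run. Some genes of the lists are not reported here and were left out of their counts.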

Additional observations from a re-analysis of the deposited data

How the results depend on the processing

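No paired analysis was possible because each group is present as a single mean. Leaving out each replicate and the replicate block were not run for the same reason. Of 36 log2 ratios of the 9 genes under other scalings and pseudocounts, 36 stayed inside their own counting interval and 0 changed sign. No change of sign was possible here, so that this count is no check. A pseudocount added to both means cannot reverse a ratio, and the scalings shifted each ratio by 0.0151 or -0.0076 only. Only the pseudocounts could have moved a ratio out of its interval. With a pseudocount of 0.5 RPKM, 5 members in place of 6 were past 1.5-fold, since Ifit1 was at 0.57, and the median log2 ratio was 0.63. With at least 5 RPKM in either group 3 members were left, so that the median log2 ratio was 0.37 and 1 member was past 1.5-fold. This was Ifit3, which reached 5 RPKM through CUMS alone (2.86 RPKM in control and 5.31 RPKM in CUMS). Stat2 and Irf9, above 5 RPKM in both groups, were not past 1.5-fold. With a fold threshold of 2, 3 members were past it. The number of members whose counting interval excluded 0, 8 in the report, was 4 with the depth divided by 2, 9 with the depth multiplied by 2 and 5 at a confidence of 99%. The limit on the mean of both groups, chosen after seeing the data, left 8 higher members and 6 past 1.5-fold. Setting the median ratio of all genes to 0 shifted each ratio by 0.0151. Usp18, Isg15, Ifit1, Bst2, Irf7 and Oasl2 rest on 10 to 36 fragments in control, which limits their ratios most.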
